A study of Rattus norvegicus with 12 samples.

Results

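Platelet-derived growth factor (PDGF), fibroblast growth factor (FGF) and hepatocyte growth factor (HGF) genes were examined in cultured rat atrial fibroblasts. The 10 genes were taken by symbol from the tables of read counts and of FPKM, and all 10 were found among the 22850 features listed. They comprise the 4 PDGF ligands Pdgfa, Pdgfb, Pdgfc and Pdgfd, the PDGF receptors Pdgfra and Pdgfrb, the FGF ligands Fgf2 and Fgf7, the FGF receptor Fgfr1, and Hgf. The cells came from the atria of newborn Sprague-Dawley rats aged 1 to 3 days and were enriched by differential adhesion, which does not sort fibroblasts from other attached cells. All 12 libraries came from cells kept for 48 h in 2% FBS with angiotensin II (AngII), a peptide hormone that drives fibroblast activation, at 1 μmol/L. The 4 AngII libraries received no other agent. In the 4 AngII+HNG libraries HNG, an analogue of the mitochondrial peptide humanin with glycine at position 14, was given at 10 μmol/L 1 h before AngII. In the 4 AngII+MOTS-c libraries MOTS-c, another peptide encoded in the mitochondrial genome, was given at 5 μmol/L 1 h before AngII. No group without AngII was analysed here, so each peptide was compared with AngII alone and with the other peptide.

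PDGF ligands are secreted dimers that activate the receptor tyrosine kinases PDGFRα and PDGFRβ, and both receptors are characteristic of mesenchymal cells, in which they promote growth, migration and survival. PDGF-C and PDGF-D are secreted in an inactive form and are released by proteases such as the plasminogen activators. FGFs activate FGF receptors together with heparan sulfate chains on the cell surface, and HGF, a product of mesenchymal cells, is cleaved outside the cell and then activates the receptor MET. All of these receptors feed the RAS and ERK cascade, which in turn induces its own inhibitors, among them the Sprouty proteins.

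The bases just upstream of the annotated start of the most abundant PDGF ligand genes, Pdgfa and Pdgfd, are printed because Pdgfd was the gene of the 10 that passed the test with HNG and Pdgfa was not. They are RefSeq sequences of the build GRCr8, 5′ to 3′ on the strand of the gene, and capitals mark matches on either strand to the searched motifs. RefSeq entries were matched for 8 of the 10 genes, all except Pdgfrb and Fgfr1.

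Pdgfd promoter, GRCr8 chr8:11773258-11773507, plus strand: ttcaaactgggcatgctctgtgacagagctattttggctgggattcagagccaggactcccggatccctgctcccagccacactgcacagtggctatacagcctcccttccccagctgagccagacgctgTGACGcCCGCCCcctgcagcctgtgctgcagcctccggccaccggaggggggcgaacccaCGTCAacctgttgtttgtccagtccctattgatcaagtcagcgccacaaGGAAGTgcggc
Pdgfa promoter, GRCr8 chr12:20759116-20759365, plus strand: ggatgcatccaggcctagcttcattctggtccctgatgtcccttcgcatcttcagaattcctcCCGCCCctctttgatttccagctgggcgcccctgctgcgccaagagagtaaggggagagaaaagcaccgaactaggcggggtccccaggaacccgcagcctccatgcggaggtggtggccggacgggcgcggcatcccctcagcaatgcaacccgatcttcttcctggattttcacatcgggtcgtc

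The Pdgfd window held 1 GC box (GGGCGG), 2 cores of the cyclic AMP response element (TGACG) and 1 ETS core (GGAAGT), none of which overlapped. The Pdgfa window held 1 GC box and no match to the other motifs searched. Those were the AP-1 site (TGANTCA), the CCAAT box (CCAAT) and the TATA box (TATAAA). Of 33469 RefSeq promoter windows of the same 250 bases, 30.5% held a GC box, 18.2% the TGACG core and 19.2% the ETS core. The AP-1 site was found in 6.34%, the CCAAT box in 34.0% and the TATA box in 12.9% of all windows. The windows of Pdgfd and Pdgfa held 61.6% and 60.8% G and C, against a median of 51.2%.

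The libraries held 27960586 to 38322354 counts, at which a floor of 3 counts lay between 0.0783 and 0.107 CPM, the count relative to the library total, here with TMM scaling of the totals. This floor covers counting error only. The libraries of a group are described as independent biological replicates, without saying whether separate animals or separate cultures are meant, so p-values measure the spread between these libraries. The 9 fibroblast markers averaged from 115 CPM for Thy1 to 25799 CPM for Col1a1, and the 9 cardiomyocyte markers from 28.7 CPM for Tnni3 to 2093 CPM for Myh6. These CPM are not divided by gene length. No marker of any cell type was at 0 in all libraries. Markers of other cells were therefore present. The summed level of 12 macrophage markers was 251 to 306 CPM with AngII, 344 to 450 CPM with AngII+HNG and 247 to 302 CPM with AngII+MOTS-c, with Cd163 and Fcgr3a below 1 CPM. The sum of 9 smooth muscle and pericyte markers was 1463 to 1553, 1196 to 1271 and 1347 to 1501 CPM in the same order, with Higd1b below 1 CPM. The sum of 10 endothelial markers was 448 to 483, 479 to 517 and 438 to 480 CPM, with Cldn5 below 1 CPM. Most of that sum was Eng, which averaged 389 CPM over the 12 libraries, with Tek next at 24.2 CPM. The sum of 9 cardiomyocyte markers was 5958 to 6718, 6151 to 7218 and 5443 to 7088 CPM. In these bulk samples a change in the number of cells of a type and a change in the RNA per cell cannot be told apart. Against AngII, 2 of 9 fibroblast markers (Thy1 and Tcf21) and 1 of 9 cardiomyocyte markers (Tnni3) were higher with HNG, where 3.4% of all genes were, and 0 of 5 Schwann and 0 of 6 epicardial markers passed. The part of these markers in the results below was not tested.

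Compared per length, the 3 receptors lay above the 7 ligands in every library. FPKM, which divide the count by gene length and library total, averaged 227 for Pdgfrb over the 12 libraries, 55.4 for Fgfr1 and 32.6 for Pdgfra. Pdgfrb ranked 255 of all features by mean FPKM, above 98.6% of those with any count. The FPKM of Pdgfrb was 6.45 to 7.29 times that of Pdgfra in each library. Pdgfrb was thus the leading receptor in every library whatever the treatment.

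Among the PDGF ligands Pdgfa was the highest, at a mean of 24.1 FPKM, followed by Pdgfd at 10.8, Pdgfc at 3.69 and Pdgfb at 1.67 FPKM. Pdgfa made up 57.6% to 66.2% of the summed FPKM of the 4 PDGF ligands in a library, and Pdgfd 22.2% to 29.8%. Pdgfc contributed 6.49% to 12.3% and Pdgfb, whose product binds both PDGF receptors, 3.09% to 5.19%. Hgf averaged 2.15 FPKM, Fgf2 1.65 FPKM and Fgf7 0.157 FPKM. Each of Pdgfrb, Fgfr1, Pdgfra, Pdgfa and Pdgfd lay above the next gene in the order without overlap of the libraries. Pdgfc, Hgf, Pdgfb and Fgf2 overlapped with their neighbours in the order, and Fgf7 lay below Fgf2 in all libraries. Fgf7 rested on 203 counts over the 12 libraries. Its count relative to the library total, divided by its FPKM, differed up to 2.52-fold between libraries, so its place holds only as the lowest. The corresponding ratio was 1.35-fold for Pdgfc and 1.26-fold for Hgf, and at most 1.09-fold for the other 7 genes.

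**Figure D1:**
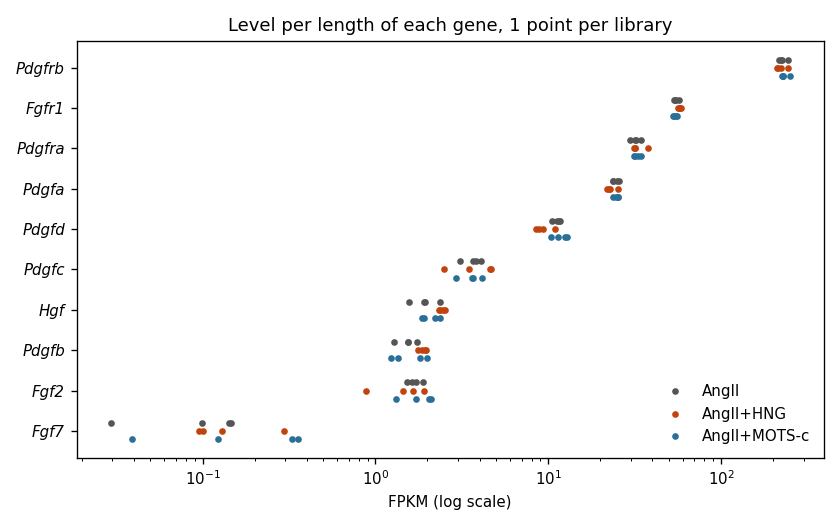
FPKM of each gene on a log scale, with 1 point per library, coloured by treatment, and genes ordered by their mean over the 12 libraries. Pdgfrb lies at 211 to 249 FPKM in all libraries, and Pdgfc, Hgf, Pdgfb and Fgf2 overlap between 0.878 and 4.67 FPKM.

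HNG added to AngII was accompanied by a lower level of Pdgfd, the ligand of PDGFRβ that is activated by proteolysis. Of the 10 genes, all of which passed the filter on low counts, Pdgfd was the 1 gene with an adjusted p below 0.05, against 5.98% of the 14524 genes tested with edgeR (3.4% higher and 2.58% lower). Unadjusted p was below 0.05 for 3 of the 10, Pdgfa, Pdgfb and Pdgfd, against 20.3% of all genes. The groups did not overlap in CPM for 1 gene, Pdgfb, against 13.7%. The median log2 difference of the 10 genes was -0.011 and that of all genes tested 0.0043. As shares, 1 of 10 passing and 1 of 10 without overlap are close to those of all genes.

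The 4 AngII libraries held 45.0, 40.9, 45.6 and 44.2 CPM of Pdgfd, and the 4 AngII+HNG libraries 42.1, 34.3, 32.7 and 36.1 CPM. The AngII+HNG libraries of replicates 2 to 4 lay below all AngII libraries, and replicate 1 lay within their range, so the groups overlapped. The means were 43.9 ± 2.08 CPM and 36.3 ± 4.11 CPM (SD, n = 4 each), a log2 difference of -0.27 (SE 0.072, 95% interval -0.43 to -0.12, adjusted p = 0.0436 by edgeR). In percent the fitted difference was -17.1%, with an interval of -25.6% to -7.76%. The call was close to the threshold and passed it in 8 of 20 alternative analyses, with adjusted p from 0.00594 to 0.15, while the log2 difference kept its sign in all 20, from -0.35 to -0.23. Leaving out any 1 library other than AngII+HNG replicate 1 ended the call, with adjusted p of 0.0542 to 0.129, and summing replicates 2 and 3, which share a number in the library name, gave 0.104. Without replicate 4 of both groups it was 0.15. Of 8 smooth muscle and pericyte markers tested 4 were also lower with HNG (Myh11, Mcam, Notch3 and Cnn1), against 2.58% of all genes, and the other 4 did not pass, while Pdgfrb, the receptor of PDGF-D, did not pass.

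**Figure D2:**
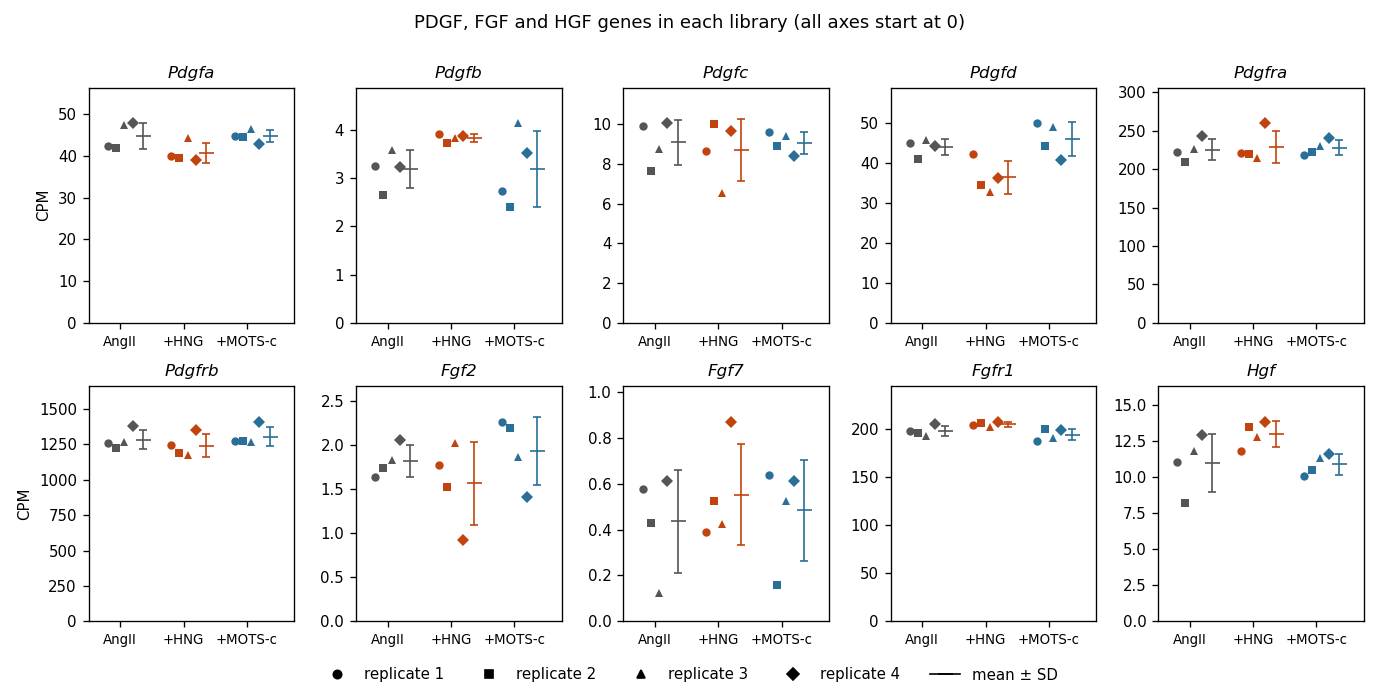
CPM of each gene in the 12 libraries by treatment, with a symbol for each replicate number and bars for the mean and SD of 4 libraries. Pdgfd lies at 32.7 to 42.1 CPM with AngII+HNG and at 40.9 to 45.6 CPM with AngII, and Pdgfra, Pdgfrb and Hgf are highest in replicate 4 of every treatment.

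Pdgfa, whose product activates PDGFRα, had 42.3, 42.0, 47.4 and 47.8 CPM with AngII and 40.1, 39.4, 44.3 and 39.0 CPM with AngII+HNG. The replicate 3 library of AngII+HNG lay within the AngII range and the other libraries of that group below it. The log2 difference was -0.14 (SE 0.061, 95% interval -0.27 to -0.0029, adjusted p = 0.236 by edgeR), and it did not pass the threshold in any of the 20 alternatives.

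Pdgfb had 3.26, 2.66, 3.59 and 3.23 CPM with AngII and 3.90, 3.73, 3.84 and 3.87 CPM with AngII+HNG. The 4 AngII+HNG libraries lay above all AngII libraries and close to each other. The log2 difference of 0.27 (SE 0.12, 95% interval 0.012 to 0.53, adjusted p = 0.225 by edgeR) did not pass in the main test or in any of the 20 alternatives. Pdgfb is also made by endothelial cells and macrophages, and 3 of 10 endothelial and 4 of 11 macrophage markers tested were higher with HNG, against 3.4% of all genes. The part of these cells in the level of Pdgfb was not tested. Pdgfc had 7.62 to 10.04 CPM with AngII and 6.52 to 10.02 CPM with AngII+HNG, and its log2 difference of -0.054 (95% interval -0.34 to 0.23) changed sign with the unit and when AngII+HNG replicate 3 was left out.

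The receptors differed little between AngII and AngII+HNG. Pdgfrb had 1261, 1226, 1268 and 1383 CPM with AngII and 1246, 1188, 1172 and 1351 CPM with AngII+HNG, with replicate 4 highest in each group. The log2 difference was -0.047 (95% interval -0.16 to 0.064, adjusted p = 0.683 by edgeR), an interval of -10.3% to 4.55% in percent. Pdgfra, a marker of cardiac fibroblasts, had 222, 210, 226 and 243 CPM with AngII and 221, 220, 214 and 259 CPM with AngII+HNG. Its log2 difference of 0.025 (95% interval -0.11 to 0.16, adjusted p = 0.881 by edgeR) was smaller than the spread between replicates and turned negative without AngII replicate 2 (-0.011) or AngII+HNG replicate 4 (-0.041). Fgfr1, the main FGF receptor of mesenchymal cells, had 193 to 206 CPM with AngII and 202 to 208 CPM with AngII+HNG, a log2 difference of 0.054 (95% interval -0.022 to 0.13, adjusted p = 0.431 by edgeR).

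Hgf had 11.02, 8.22, 11.8 and 12.9 CPM with AngII and 11.8, 13.5, 12.8 and 13.8 CPM with AngII+HNG. The groups overlapped, and the AngII library of replicate 2 was the lowest of all. The log2 difference was 0.24 (SE 0.12, 95% interval -0.013 to 0.50, adjusted p = 0.274 by edgeR), and 0.13 without AngII replicate 2. Fgf2, a growth factor bound to heparan sulfate in the matrix, had 1.63 to 2.06 CPM with AngII and 0.926 to 2.02 CPM with AngII+HNG, and its log2 difference of -0.22 (95% interval -0.69 to 0.25) changed sign without replicate 4 of both groups. Fgf7, a mesenchymal factor that acts on epithelial cells, had 0.122 to 0.614 CPM and 0.390 to 0.870 CPM, and the interval of its log2 difference, -0.56 to 1.23, was too wide to read a direction. Genes that overlap these 2 on the genome were counted as well. Nudt6, which lies antisense to Fgf2, had 143 to 217 counts per library, and Fam227b, which overlaps Fgf7, had 32 to 77 counts. Ddi1, within Pdgfd, had 0 to 4 counts. The use of strand in counting is not given in the sources used here, so reads of overlapping genes cannot be told apart.

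MOTS-c added to AngII left no detected change in the 10 genes. With edgeR 0 of 10 passed, against 0.0069% of the 14488 genes tested, which is 1 gene. Unadjusted p was below 0.05 for 0 of the 10, against 5.05% of all genes, and 0 of 10 had groups without overlap, against 3.41%. DESeq2 and limma on log2 of FPKM also called 0 of 10. The lowest adjusted p among them was 0.943, and the log2 differences ran from -0.026 for Fgfr1 to 0.11 for Fgf7, with a median of 0.0078 against -0.00076 for all genes. Pdgfd had 49.8, 44.3, 49.0 and 40.6 CPM with AngII+MOTS-c, which overlapped with the 40.9 to 45.6 CPM of AngII. Its log2 difference of 0.066 (SE 0.062, 95% interval -0.067 to 0.20, adjusted p = 0.943 by edgeR) corresponds to an interval of -4.55% to 14.8% in percent, and it was 0.024 without AngII+MOTS-c replicate 1 and 0.12 without AngII+MOTS-c replicate 4. For Fgfr1 the 95% interval was -0.095 to 0.043, and the log2 difference ran from -0.039 to -0.0080 when single libraries were left out. The widest interval was that of Fgf7, from -0.88 to 1.11, and that of Fgf2 ran from -0.29 to 0.48.

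HNG and MOTS-c, both in the presence of AngII, were then compared directly, which tests whether the peptides differed. Pdgfd was lower with HNG than with MOTS-c, and it was the 1 gene of the 10 past the threshold, against 4.41% of 14448 genes (2.64% higher and 1.77% lower). The AngII+HNG libraries held 32.7 to 42.1 CPM and the AngII+MOTS-c libraries 40.6 to 49.8 CPM, with AngII+HNG replicate 1 above AngII+MOTS-c replicate 4. The log2 difference was -0.34 (SE 0.084, 95% interval -0.52 to -0.16, adjusted p = 0.0384 by edgeR), or -21.0%. The call held in 9 of 20 alternatives, with adjusted p from 0.00412 to 0.142, and the difference ran from -0.41 to -0.30. Among the single libraries, leaving out AngII+HNG replicate 1 or AngII+MOTS-c replicate 4 kept the call and leaving out any other ended it, with adjusted p of 0.0659 to 0.117. This comparison shares its AngII+HNG libraries with the comparison against AngII, so the calls of Pdgfd in both are not independent.

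Unadjusted p was below 0.05 for 3 of the 10 genes between the peptides, Pdgfd, Hgf and Pdgfa, against 19.3% of all genes, and the groups did not overlap for 2, Hgf and Fgfr1, against 12.6%. Hgf had 10.1, 10.5, 11.3 and 11.6 CPM with AngII+MOTS-c, all below the 11.8 to 13.8 CPM of AngII+HNG. Its log2 difference of 0.26 (SE 0.081, 95% interval 0.082 to 0.43, adjusted p = 0.0973 by edgeR) did not pass, and in the 20 alternatives adjusted p ran from 0.0622 to 0.301. Fgfr1 had 188, 200, 191 and 199 CPM with AngII+MOTS-c, below the 202 to 208 CPM of AngII+HNG. That difference was 0.078 on the log2 scale (95% interval -0.0015 to 0.16, adjusted p = 0.268 by edgeR).

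Pdgfa had 44.7, 44.7, 46.5 and 42.9 CPM with AngII+MOTS-c, a range that the AngII+HNG library of replicate 3 entered. Its log2 difference of -0.13 (95% interval -0.25 to -0.018, adjusted p = 0.193 by edgeR) passed only without that library, at an adjusted p of 0.0478. Pdgfb had 2.72, 2.40, 4.13 and 3.52 CPM with AngII+MOTS-c, a spread that covered the AngII+HNG values, and its log2 difference was 0.27 (95% interval -0.075 to 0.62), or 0.15 to 0.41 when single libraries were left out, the lowest without AngII+MOTS-c replicate 2 and the highest without its replicate 3. The log2 differences of Pdgfrb and Pdgfra between the peptides were -0.075 (95% interval -0.19 to 0.040) and 0.0059 (95% interval -0.12 to 0.13), and that of Pdgfrb was -0.12 without AngII+HNG replicate 4 and -0.034 without AngII+MOTS-c replicate 4. Those of Fgf2, Pdgfc and Fgf7 were -0.31 (95% interval -0.83 to 0.20), -0.055 (95% interval -0.32 to 0.21) and 0.22 (95% interval -0.66 to 1.10). Without single libraries that of Fgf2 ran from -0.47, without AngII+HNG replicate 3, to -0.12, without AngII+HNG replicate 4.

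**Figure D3:**
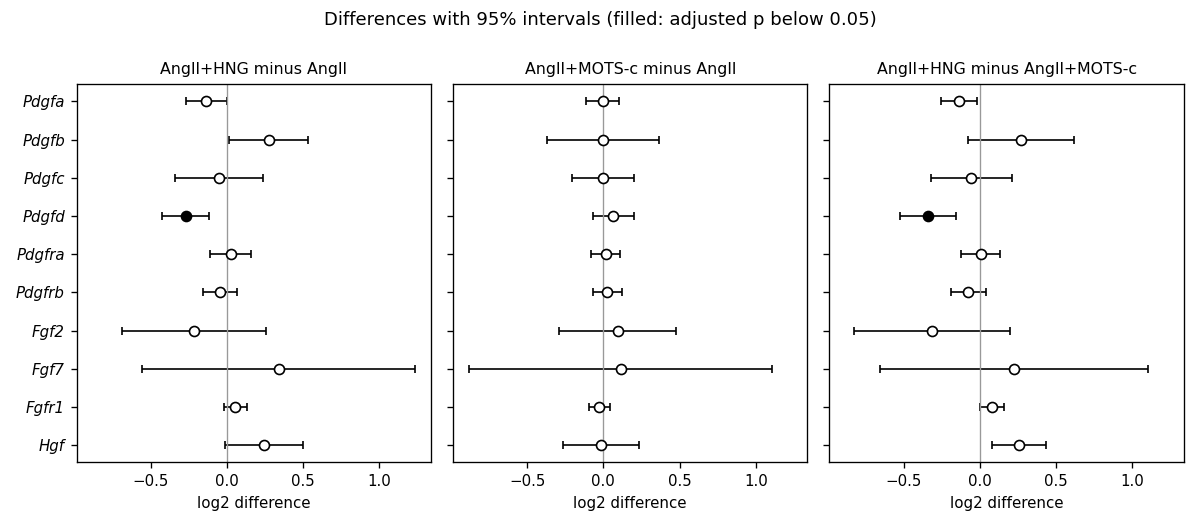
Log2 difference of each gene in the 3 comparisons, with 95% intervals from edgeR on 8 libraries each and filled points for an adjusted p below 0.05. Pdgfd is the gene with filled points, at -0.27 for AngII+HNG minus AngII and -0.34 for AngII+HNG minus AngII+MOTS-c.

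Libraries numbered 4 stood apart for the PDGF receptors. Pdgfra had 240 to 259 CPM in the 3 libraries of replicate 4 and 210 to 230 CPM in the other 9. Pdgfrb had 1351 to 1409 CPM in replicate 4 and 1172 to 1274 CPM in the others, so that for both receptors replicate 4 lay above all other libraries. Hgf was also highest in replicate 4 of each treatment, at 11.6 to 13.8 CPM, but overlapped with the rest, at 8.22 to 13.5 CPM. Replicate 4 was the highest in all 3 treatments for 5.17% of the 14524 genes and for 3 of these 10. The labels do not say what a replicate number stands for.

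The libraries with most Pdgfd had most of a few other genes. Over the 12 libraries the genes with the highest Pearson correlation of log2 CPM with Pdgfd, among 13208 compared, were Mbnl2 (r = 0.95), Arhgef6 (r = 0.95) and Tbc1d23 (r = 0.95). Mbnl2 encodes an RNA-binding splicing regulator and Arhgef6 an exchange factor for RAC and CDC42. Mbnl2 averaged 167 CPM with AngII, 151 CPM with AngII+HNG and 172 CPM with AngII+MOTS-c. Between the peptides Tbc1d23, at 106 CPM with AngII+HNG and 121 CPM with AngII+MOTS-c, passed the test with a log2 difference of -0.19 (adjusted p = 0.0421 by edgeR). That call held in 8 of 20 alternatives, and leaving out any single library other than AngII+HNG replicate 1 or AngII+MOTS-c replicate 4 ended it, at adjusted p of 0.0587 to 0.109. Mbnl2 and Arhgef6 did not pass (adjusted p = 0.053 and 0.0594). Among the other 9 genes the correlation with Pdgfd ran from -0.73 for Fgfr1 to 0.58 for Pdgfa. The 12 points share 3 treatments, library depth and RNA preparation, and the values are a description.

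Other genes of the same pathways were described by lists of 119 genes in all, chosen with earlier results of these data known. Between AngII+HNG and AngII 102 of them were tested and 16 passed, 10 higher and 6 lower, a share of 15.7% against 5.98% of all genes. Unadjusted p was below 0.05 for 35 of the 102, against 20.3% of all genes. Their median log2 difference was 0.0073, against 0.0043 for all genes. With MOTS-c 0 of 103 passed with edgeR, and 7 had an unadjusted p below 0.05, against 5.05% of all genes. Between the peptides 12 of 102 passed, 7 higher and 5 lower with HNG, or 11.8% against 4.41%, with a median of -0.0053 against 0.0023, and 32 had an unadjusted p below 0.05, against 19.3%.

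Of 10 other PDGF pathway genes 3 were higher with HNG than with AngII and 0 lower, against 3.4% and 2.58% of all genes. Plau, the urokinase that can activate PDGF-D and HGF, had 18.2, 17.6, 22.1 and 22.8 CPM with AngII and 23.6, 25.8, 29.8 and 30.1 CPM with AngII+HNG. The groups did not overlap, and the log2 difference was 0.44 (SE 0.099, adjusted p = 0.0187 by edgeR). Lrp1, an endocytic receptor that associates with PDGFRβ, lay at 1392 to 1447 CPM with AngII and rose to 1539 to 1649 CPM with AngII+HNG, a log2 difference of 0.17 (SE 0.035, adjusted p = 0.012). Kdr, the VEGF receptor 2, which belongs to the same kinase family and marks endothelial cells, lay at 7.31 to 9.89 CPM with AngII and rose to 10.9 to 13.6 CPM with AngII+HNG, a log2 difference of 0.43 (SE 0.10, adjusted p = 0.0275). The call of Plau was lost without AngII replicate 1, AngII replicate 2 or AngII+HNG replicate 4 (adjusted p of 0.0559 to 0.0797), that of Lrp1 without AngII replicate 2 or 3 (0.05 and 0.0508) and that of Kdr without replicates 1 or 2 of AngII or 2 or 4 of AngII+HNG (0.0565 to 0.0796). Plau and Lrp1 are also expressed by macrophages, whose summed markers did not overlap between AngII and AngII+HNG, as given above. The part of macrophages in these differences was not tested. Plat, the protease that activates PDGF-C, was abundant at a mean of 153 FPKM and did not pass. Between the peptides 0 of the 10 passed, and 4 had an unadjusted p below 0.05, against 19.3% of all genes.

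Of 19 other FGF ligands 5 had no count in any library, and 0 of the 9 tested against AngII passed with HNG, where 3 had an unadjusted p below 0.05, against 20.3% of all genes. The highest were Fgf1 at a mean of 5.92 FPKM and Fgf10, a mesenchymal ligand of FGFR2, at 3.92 FPKM. Fgf10 had 2.97, 3.54, 2.86 and 2.91 CPM with AngII, 2.80, 1.89, 2.20 and 2.47 CPM with AngII+HNG, and 2.46, 2.85, 2.70 and 2.45 CPM with AngII+MOTS-c. Both peptide groups lay below AngII without overlap, where 13.7% and 3.41% of all genes had no overlap in either direction. With AngII+MOTS-c the gap was small, 2.8529 against 2.8595 CPM, and both comparisons share the AngII libraries. The log2 differences were -0.39 (SE 0.15, adjusted p = 0.158 by edgeR) and -0.23 (SE 0.13, adjusted p = 0.924), neither past the threshold. Fgf1, an FGF without a signal peptide, had log2 differences of -0.19 (adjusted p = 0.202) and -0.15 (adjusted p = 0.924).

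Of the other FGF receptors and co-receptors 9 of 11 were tested and 1, Fgfr2, passed in both comparisons with AngII+HNG, against 5.98% and 4.41% of all genes. Fgfr2 had 75.0, 76.9, 70.3 and 74.2 CPM with AngII, 90.4, 92.7, 90.3 and 86.0 CPM with AngII+HNG, and 70.7, 76.1, 72.0 and 77.2 CPM with AngII+MOTS-c. All AngII+HNG libraries lay above the 8 other libraries. The log2 difference was 0.28 (SE 0.042, adjusted p = 0.00209 by edgeR) against AngII and 0.28 (SE 0.043, adjusted p = 0.00313) against AngII+MOTS-c, and it passed in all 20 alternatives of each comparison. Fgfr2 averaged 17.6 FPKM, below the 55.4 FPKM of Fgfr1 and the 22.2 FPKM of Fgfr3, while Fgfr4 averaged 2.41 FPKM. The HGF receptor Met averaged 1.08 FPKM and did not pass. Of 10 HGF receptor and processing genes 5 were tested, and Plau was the 1 that passed against AngII, where 5.98% of all genes did; Hgfac, the HGF activator, had 0 to 8 counts per library.

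Heparan sulfate genes, whose products carry, build or trim the chains that FGFs and their receptors bind, changed in both directions with HNG. Of 23 tested 3 were higher and 4 lower than with AngII, against 3.4% and 2.58% of all genes, and 16 did not pass. Among the 23, 12 had an unadjusted p below 0.05, against 20.3% of all genes, and the median log2 difference was -0.015. Gpc3, a glypican, had 101, 106, 106 and 94.2 CPM with AngII, 147, 152, 156 and 136 CPM with AngII+HNG, and 107, 94.9, 117 and 80.9 CPM with AngII+MOTS-c. Its AngII+HNG libraries lay above all others, and the log2 differences were 0.54 (SE 0.053, adjusted p = 0.00015 by edgeR) against AngII and 0.56 (SE 0.091, adjusted p = 0.00376) against AngII+MOTS-c.

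Sulf2, an extracellular enzyme that removes 6-O-sulfates from heparan sulfate, had 138, 146, 143 and 136 CPM with AngII, 180, 191, 186 and 177 CPM with AngII+HNG, and 138, 145, 143 and 128 CPM with AngII+MOTS-c. Here too the AngII+HNG libraries stood clear of the others. The log2 differences were 0.38 (SE 0.040, adjusted p = 0.000202 by edgeR) and 0.40 (SE 0.046, adjusted p = 0.000573). Its homologue Sulf1 had a log2 difference of 0.14 against AngII (adjusted p = 0.0515) and did not pass. Gpc1 was higher by 0.22 on the log2 scale (adjusted p = 0.0217), but passed in 13 of 20 alternatives against AngII and in 9 of 20 against AngII+MOTS-c. Against AngII it was lost without replicates 1, 2 or 3 of AngII or 2 or 4 of AngII+HNG, at adjusted p of 0.0544 to 0.0869.

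Sdc2, a syndecan of mesenchymal cells, had 445, 405, 454 and 479 CPM with AngII, 353, 359, 326 and 384 CPM with AngII+HNG, and 445, 420, 422 and 470 CPM with AngII+MOTS-c. The AngII+HNG libraries lay below all others. It fell by 0.32 on the log2 scale (SE 0.057, adjusted p = 0.00563 by edgeR) against AngII. Against AngII+MOTS-c its log2 difference was -0.30 (SE 0.054, adjusted p = 0.00668). Sdc1 fell by 0.25 (adjusted p = 0.00945), Gpc4 by 0.19 (adjusted p = 0.0191) and Ext1, a polymerase of the heparan sulfate chain, by 0.14 (adjusted p = 0.0373) against AngII. The call of Ext1 held in 8 of 20 alternatives, that of Gpc4 in 11 and that of Sdc1 in 19. Ext1 was lost without any single library other than AngII+HNG replicate 3 (adjusted p of 0.0642 to 0.119) and Gpc4 without replicates 1, 2 or 3 of AngII or 2 or 4 of AngII+HNG (0.0544 to 0.0743). Gpc3, Sulf2 and Sdc2 passed in all 20 alternatives of both comparisons with AngII+HNG.

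**Figure D4:**
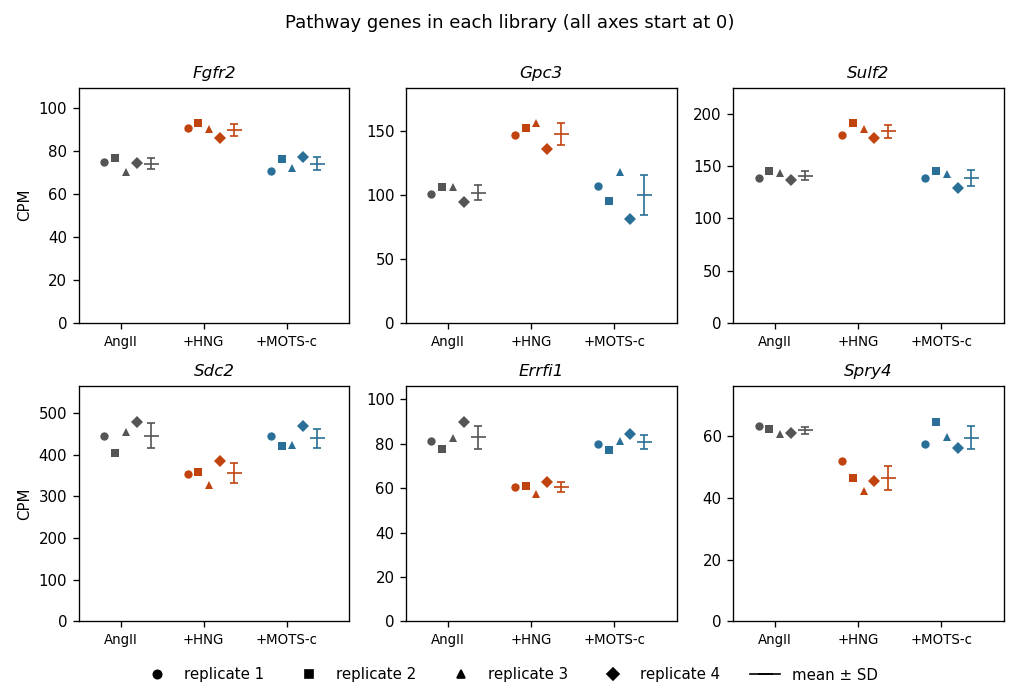
CPM of 6 pathway genes in the 12 libraries by treatment, with a symbol for each replicate number and bars for the mean and SD of 4 libraries. The AngII+HNG libraries lie above all others for Fgfr2, Gpc3 and Sulf2 and below all others for Sdc2, Errfi1 and Spry4.

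Of 32 adaptor and ERK cascade genes 1 passed with HNG against AngII, where 5.98% of all genes did. It was Mapk3, which encodes ERK1. Mapk3 was higher with HNG by 0.13 on the log2 scale (SE 0.035, adjusted p = 0.0457 by edgeR), a call that held in 8 of 20 alternatives and was lost without any single library other than AngII+HNG replicate 3 (adjusted p of 0.0538 to 0.152). The other 31 did not pass, and 0 of 32 passed in either of the other comparisons, where 5 each had an unadjusted p below 0.05, against 5.05% of all genes with MOTS-c and 19.3% between the peptides.

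Of 15 feedback inhibitors and ETS target genes 2 were higher and 2 lower with HNG than with AngII, against 3.4% and 2.58% of all genes. Among the 15, 9 had an unadjusted p below 0.05, against 20.3% of all genes. Errfi1, an inhibitor of the EGF receptor family that is induced by growth factors, had 81.0, 77.8, 82.5 and 89.8 CPM with AngII, 60.5, 61.0, 57.3 and 62.8 CPM with AngII+HNG, and 79.7, 77.0, 81.4 and 84.5 CPM with AngII+MOTS-c. It fell by 0.45 on the log2 scale (SE 0.050, adjusted p = 0.000348 by edgeR), and no AngII+HNG library overlapped with another group. Spry4, a Sprouty inhibitor of the RAS and ERK cascade, had 63.3, 62.4, 60.6 and 61.0 CPM with AngII, 51.8, 46.5, 42.1 and 45.3 CPM with AngII+HNG, and 57.3, 64.6, 59.8 and 56.1 CPM with AngII+MOTS-c. It fell by 0.41 (SE 0.057, adjusted p = 0.00148 by edgeR), again without overlap.

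The transcription factors Etv4 and Etv5, commonly used as readouts of FGF signalling, moved in the opposite direction to Spry4. Etv5 had 40.6 to 46.7 CPM with AngII, 50.2 to 53.7 CPM with AngII+HNG and 44.8 to 46.9 CPM with AngII+MOTS-c. Its log2 difference of 0.26 (SE 0.053, adjusted p = 0.0117 by edgeR) passed in 19 of 20 alternatives, and that of Etv4, 0.38 (SE 0.091, adjusted p = 0.0265), in 14 of 20, being lost without replicates 1, 3 or 4 of AngII or 2 of AngII+HNG (0.075 to 0.0882). Between the peptides Etv1, at 0.39 (adjusted p = 0.0432), and the ubiquitin ligase gene Cblb, at -0.25 (adjusted p = 0.0188), passed as well. Etv1 was lost without replicates 1 or 4 of AngII+HNG or 1, 3 or 4 of AngII+MOTS-c (0.0669 to 0.131), and Cblb without AngII+MOTS-c replicate 1 (0.0571). The call of Cblb held in 14 of 20 alternatives, with adjusted p up to 0.534 and a log2 difference of -0.12 with limma on log2 of FPKM plus 1. The list thus had 3 higher and 3 lower genes between the peptides, against 2.64% and 1.77% of all genes, with a median of 0.0074 against 0.0023. Other readouts of the same kind, Dusp6, Spry1 and Spry2, did not pass in any comparison.

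**Figure D5:**
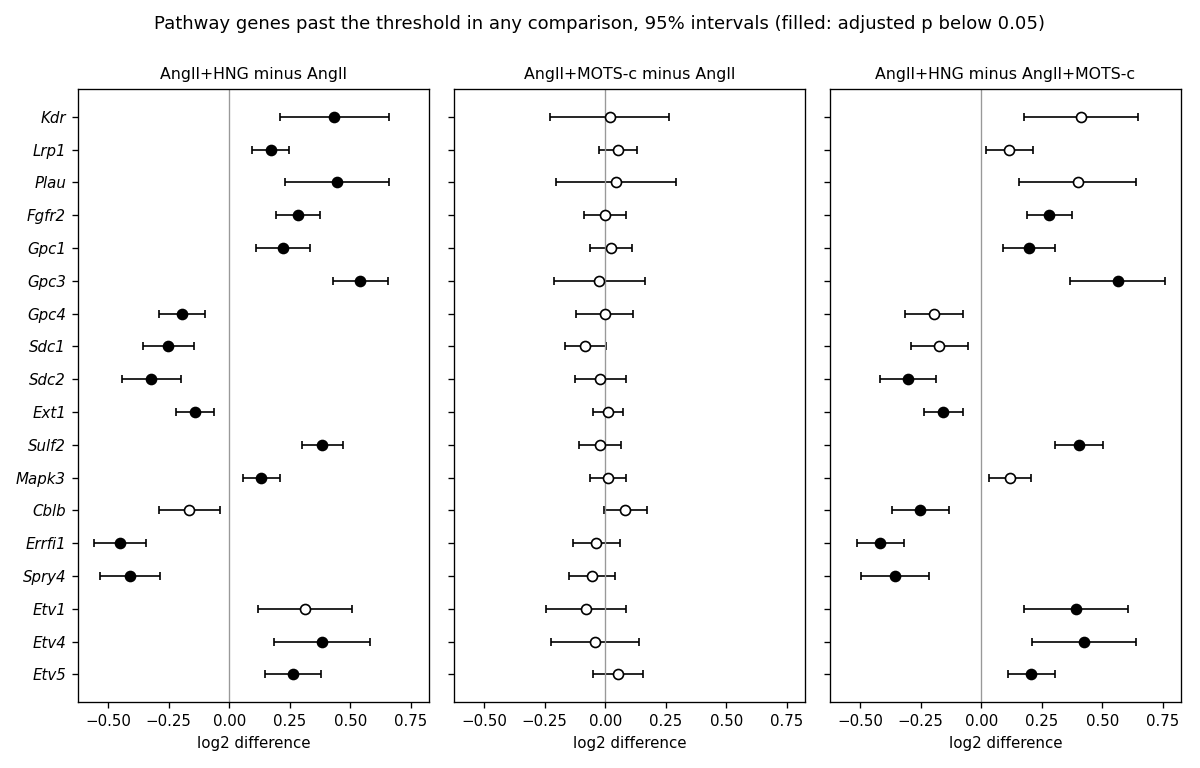
Log2 difference of the 18 pathway genes past the threshold in any comparison, with 95% intervals and filled points for an adjusted p below 0.05. Filled points stand on both sides of 0 in the 2 comparisons with AngII+HNG, and none is filled for AngII+MOTS-c minus AngII.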

How the data were processed

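A total of 12 mRNA libraries were sequenced as paired-end reads on a DNBSEQ platform. The authors deposited an unnormalized table of whole read counts for each gene and, for the same libraries, FPKM values, which divide the count by gene length and library total. Per the submitters' processing notes HISAT2, Picard 1.41 and SAMtools 0.1.18 were used, with no role stated. The counter, build, annotation and use of strand are not given in the sources used here. Groups, replicate numbers, doses and times were taken from the labels and the study's methods.

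The counts were tested with edgeR 4.0.16 under R 4.3.3 (filterByExpr, TMM, glmQLFit and glmQLFTest, Benjamini-Hochberg adjustment over all genes tested, threshold 0.05), in each comparison on its own 8 libraries. CPM were scaled by TMM, and log2 CPM for correlations had a prior count of 2. Standard errors were derived from the F statistic. The code was tested on simulated counts. The libraries held 27960586 to 38322354 counts, and Fgf7 and Fgf2 had few of these and wide intervals. Alternatives were DESeq2 1.42.0, RLE factors, other filters, all 12 libraries in one fit, blocks, summed replicates 2 and 3, limma 3.58.1 on log2 of FPKM plus 1 or 0.1, and omission of each library. The omission of replicate 4 was chosen after seeing the data. The blocks were the replicate number or the number in the library name. In the library names AngII+MOTS-c replicate 1 carries number 2, and replicate 1 of the other groups number 1. Under that block the replicate 1 libraries therefore had no counterpart in the comparisons with AngII+MOTS-c. The replicate numbers were not used to pair libraries, because the labels do not say what they mark and the deviations of equally numbered libraries did not correlate throughout.

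The 10 genes and the lists were chosen with earlier results of these data known. Named were the 10 genes, list genes with an adjusted p below 0.05 in any comparison (where a list had none, its 2 highest by FPKM), the 3 genes most correlated with a gene that passed, and overlapping neighbours. Fgfr3, Fgfr4, Met, Plat, Hgfac, Sulf1, Dusp6, Spry1 and Spry2 and the cell type markers given by name were named after their values were seen.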

Additional observations from a re-analysis of the deposited data

Results flagged for a closer look

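Single libraries lay far from the other 3 of their group in 4 of 93 groups of 4 tested by the ratio of the gap to the range, where chance gives about 1 in 20. Pdgfra in AngII+HNG had a ratio of 0.855, with replicate 4 at 259 CPM and the others at 214 to 221 CPM. Pdgfrb in AngII+MOTS-c had a ratio of 0.953, with replicate 4 at 1409 CPM and the others at 1267 to 1274 CPM. Gpc4 in AngII had a ratio of 0.856, with replicate 4 at 432 CPM and the others at 475 to 482 CPM. Tbc1d23 in AngII+MOTS-c had a ratio of 0.906, with replicate 4 at 114 CPM and the others at 122 to 123 CPM.

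The effects of the peptides differed for 14 named genes by the direct test of AngII+HNG against AngII+MOTS-c with edgeR, where 4.41% of 14448 genes passed. Most of the 14 were named because they had passed, and Tbc1d23 for its correlation with Pdgfd, so their number is largely fixed by that choice. On the log2 scale, AngII+HNG minus AngII+MOTS-c, the difference of Pdgfd was -0.3398 (36.3 ± 4.11 against 45.9 ± 4.29 CPM, SD, n = 4 each, adjusted p = 0.0384 by edgeR). Genes lower with HNG were Errfi1 at -0.4164, Spry4 at -0.3572, Sdc2 at -0.3035, Cblb at -0.2509, Tbc1d23 at -0.1878 and Ext1 at -0.1562. Genes higher with HNG were Gpc3 at 0.5622, Etv4 at 0.4242, Sulf2 at 0.403, Etv1 at 0.3902, Fgfr2 at 0.2801, Etv5 at 0.2067 and Gpc1 at 0.1963. The calls of Ext1, Tbc1d23, Gpc1 and Pdgfd were the ones lost most often, and held in 7, 8, 9 and 9 of 20 alternatives. Those of Etv1 and Etv4 held in 10 and 12 of 20. Leaving out any single library other than AngII+HNG replicate 3 ended the call of Ext1 (adjusted p of 0.0557 to 0.102), any other than AngII+HNG replicate 1 or AngII+MOTS-c replicate 4 that of Gpc1 (0.0558 to 0.138), and any other than AngII+HNG replicate 4 or AngII+MOTS-c replicate 2 that of Etv4 (0.0544 to 0.0898). The call of Etv5 was lost without AngII+MOTS-c replicate 1 or 2 (0.0726 and 0.0809).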

How the results depend on the processing

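Replicate numbers are shared by the groups. The correlation of the deviations of equally numbered libraries ran from -0.0755 to 0.136 between AngII+HNG and AngII. It ran from 2.56e-05 to 0.119 between AngII+MOTS-c and AngII and from -0.014 to 0.212 between the peptides. Not every library correlated best with its own number. Replicate 4 of the group named first did so in each comparison, at 0.136, 0.119 and 0.212. With the replicate block 1111, 2 and 1054 genes passed in place of 869, 1 and 637, Pdgfd kept its calls (adjusted p = 0.0198 and 0.00895), and of the calls of the 10 genes, the list genes and Tbc1d23 that of Mapk3 alone was lost (0.0532). The number of the 10 genes that passed was 0 in place of 1 in both comparisons with AngII+HNG when replicates 2 and 3 were summed, with limma on log2 of FPKM plus 1, plus 0.1 or without a filter, and without replicate 4 of both groups. It ranged from 0 to 1 when single libraries were left out, and between the peptides the gene was Pdgfa in place of Pdgfd without AngII+HNG replicate 3. With MOTS-c it was 0 throughout.

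Of all genes, 577 passed between AngII+HNG and AngII with replicates 2 and 3 summed, 475 with limma on FPKM without a filter, 541 without replicate 4 of both groups and 431 to 932 without single libraries. Between AngII+MOTS-c and AngII 4 passed with DESeq2, 0 with all libraries in one fit, 0 with replicates summed, 0 without replicate 4 of both groups and 0 to 3 without single libraries. Between the peptides 1034 passed with DESeq2, 975 with all libraries in one fit, 304 with limma on FPKM without a filter, 377 without replicate 4 of both groups and 322 to 625 without single libraries.

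Signs changed for genes that passed in no setting of the same comparison. With HNG against AngII, Pdgfc was 0.016 with limma on log2 of FPKM plus 1, with or without a filter, and 0.012 with plus 0.1. Pdgfra was -0.0030 and Fgf2 0.036 without replicate 4 of both groups. Without single libraries Pdgfc ranged from -0.13 to 0.061 and Pdgfra from -0.041 to 0.062, and with no change of sign Pdgfrb from -0.090 to -0.011, Fgf2 from -0.37 to -0.030 and Fgf7 from 0.031 to 0.54. Between the peptides Pdgfc was 0.047 and 0.052 and Fgf7 -0.064 and -0.19 with limma on FPKM plus 1 and plus 0.1. Pdgfra was -0.0029 with the library name number as a block and -0.032 without replicate 4 of both groups. Without single libraries Pdgfc ranged from -0.14 to 0.060, Pdgfra from -0.058 to 0.034 and Fgf7 from -0.098 to 0.39. With MOTS-c against AngII, Fgf7 ranged from -0.18 to 0.43 without single libraries, and the other 7 genes not given singly changed sign in 37 of 140 values, from -0.145 to 0.285. The cause was not tested. A minimum of 10 counts in every library removed Fgf7. Low counts limit Fgf7 and Fgf2, and the small number of libraries limits calls near the threshold, such as Pdgfd, Ext1 and Mapk3.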
